A study of Homo sapiens with 12 samples.

Results

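The genes described here are 34 genes of DNA damage signalling and DNA repair, from the sensor kinases ATM and ATR through the BRCA1 group to the excision repair proteins. They were taken by symbol from a list given for this work and not by their values, though earlier results of these data were known. All 34 were found among the 4918 genes (symbols A1BG to FAM46B) that were analysed. A375, an established human malignant melanoma cell line, was grown for 24 h in 4 groups of 3 samples. The groups were untreated control cells, cells given SB-3CT (a small molecule inhibitor of the gelatinases MMP2 and MMP9), cells given IFN-γ (a cytokine of T cells and natural killer cells, written IFNγ from here on), and cells given SB-3CT together with IFN-γ. The protocol also names a vehicle without saying which groups received it, and the doses used for sequencing are not given in the sources used here. Neither is it stated whether the 3 samples of a group came from separate cultures, so every p-value measures the spread between these samples, which may be technical.

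DNA damage is read by a small set of kinases. ATR with its partner ATRIP answers stretches of single-stranded DNA at stalled replication forks and, helped by Claspin (CLSPN), activates CHEK1, while ATM answers double-strand breaks and activates CHEK2. Homologous recombination, built around BRCA1, BARD1, BRIP1, BRCA2, BLM, DNA2 and EXO1, repairs breaks and broken forks from the sister chromatid and is used mainly in S and G2 phase, and many of its genes are transcribed mainly in S phase. Nucleotide excision repair (ERCC1 to ERCC6, ERCC8, CETN2) removes bulky and ultraviolet-induced lesions, which makes it the pathway best known in skin, and base excision repair with direct reversal (APEX1, APEX2, ALKBH2, ALKBH3, APTX, APLF) removes small base damage and single-strand breaks.

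Levels are given as FPKM, the fragments counted on a gene divided by its transcript length in kilobases and by the sample's mapped fragments. Changes, their errors and tests are those of log2(FPKM + 1), so a gene near or under 1 FPKM shows less than its full change. The control samples had a median over all genes of 3.44 to 3.57 FPKM, and the samples with SB-3CT and IFNγ had 2.70 to 2.83, with summed FPKM of 121928 to 129692 over the 12 samples. Read depth was recovered only relative to the control mean and ran from 87.2% to 150.1%, so no counting error is given. The melanoma markers AXL and CSPG4 were present at 26.3 FPKM or more in every sample, CITED1 at 0.386 to 1.59 and the pigment gene DCT at 0.384 or less. Of the epithelial markers CLDN4 was present at 7.40 to 11.5 FPKM and CLDN7, EPCAM and DSC3 at 1.03 or less, while the T cell and endothelial markers measured (CD3D, CD8A, CDH5) did not exceed 0.096. CXCL10, an IFNγ-induced chemokine, had a mean of 0.017 FPKM in control and 81.7 in IFNγ cells.

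At the level of the 12-sample mean, the repair genes ran from 0.0977 FPKM for APLF, a single-strand break repair factor, to 109.6 for APEX1, the main nuclease for abasic sites. Genes above 20 FPKM were APEX1, ERCC1 (79.4), the alkylation reversal enzyme ALKBH2 (33.5), CETN2 (31.5), APEX2 (26.4) and APTX (22.4). A further 10 lay at 5 to 20 FPKM and 15 at 1 to 5 FPKM, and BRCA2 (0.539), DCLRE1C (0.600) and APLF were under 1. IFNγ was the group with the highest mean for 17 of the 34 genes and for 9 of the 11 that are expressed mainly in S phase (BARD1, BLM, BRCA1, BRCA2, BRIP1, CHEK1, CLSPN, DNA2, EME1, ESCO2 and EXO1). SB-3CT with IFNγ was the group with the lowest mean for 23 of 34 and for 8 of these 11. Neither order was counted over all genes. The median over all genes was also lowest in the samples with both agents, at 2.70 to 2.83 FPKM, beside 3.127 or more in every other sample.

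**Figure D1:**
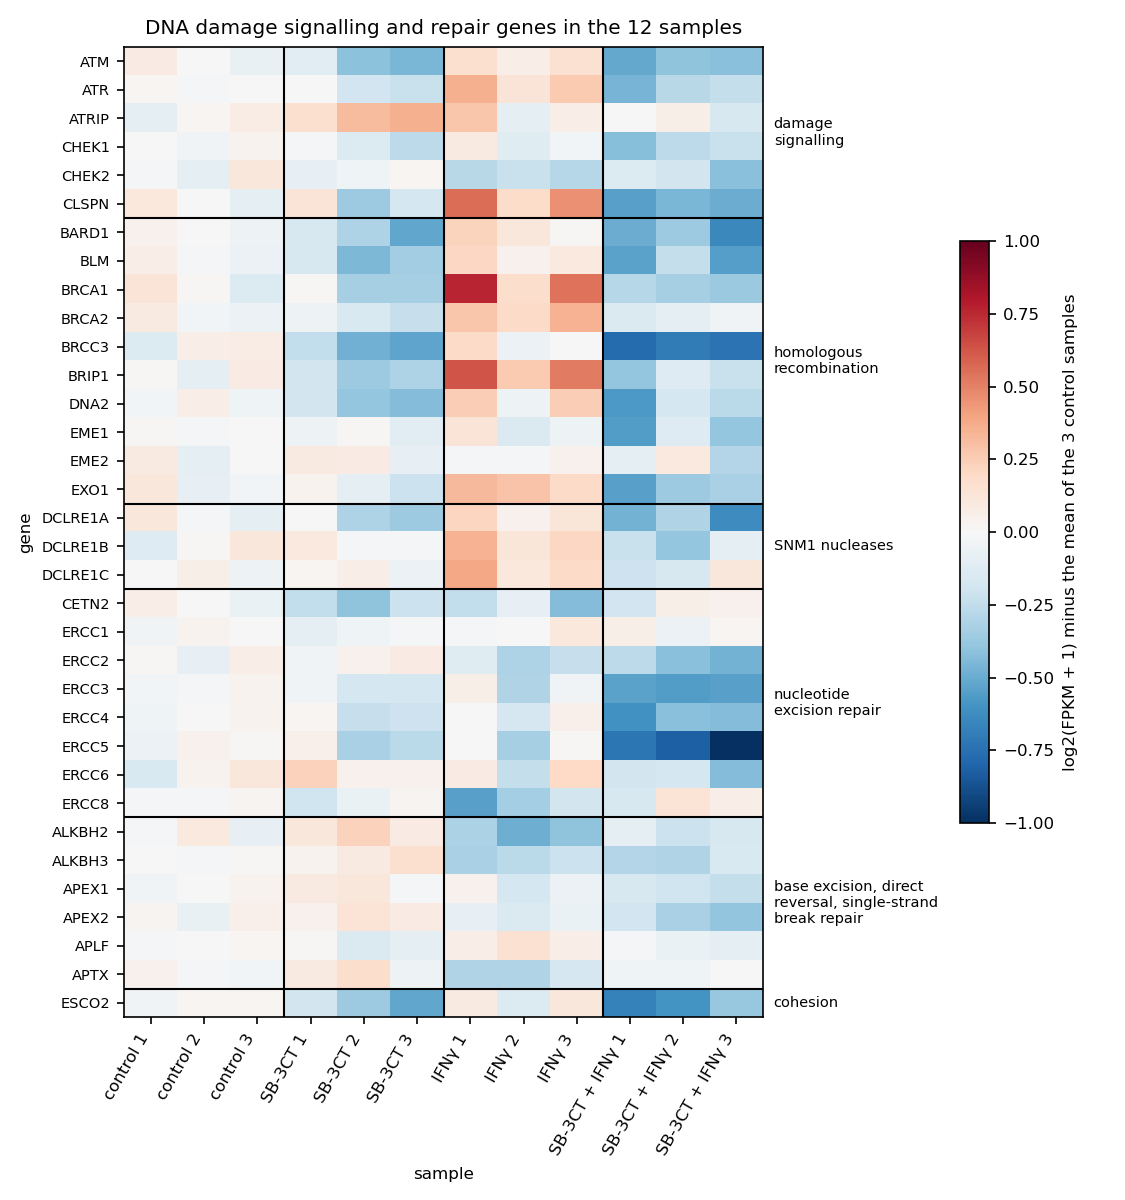
Each cell is the log2(FPKM + 1) of 1 gene (rows, by role) in 1 sample (columns, by group) minus the mean of the 3 control samples, from blue (lower) to red (higher). In the 3 samples with SB-3CT and IFNγ most damage signalling and homologous recombination genes lie below the control mean, and in the 3 IFNγ samples CLSPN, BRCA1, BRCA2, BRIP1 and EXO1 lie above it.

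The first comparison asked what SB-3CT does in cells that also receive IFNγ. In these cells 21 of the 34 repair genes were lower than with IFNγ alone and 3 were higher (limma, Benjamini-Hochberg adjusted p under 0.05 over all 4918 genes). The fall was largest for the replication checkpoint mediator CLSPN, the recombination genes BRCA1, BRIP1 and BRCC3, and ERCC5, which encodes the XPG nuclease of nucleotide excision repair. The 3 that rose were ERCC8, ALKBH2 and APTX. Of all genes tested, 31.5% were lower and 6.41% higher, so the share of repair genes that were lower, 61.8%, stood above that of all genes. With genes under 1 FPKM left aside the shares were 58.1% of 31 repair genes and 42.7% of 3177 genes. Bulk RNA cannot tell a smaller number of cells in S phase from less RNA of these genes per cell.

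The deposited scale weighs on these counts. Scaling by the median ratio moved the median change of all genes of at least 1 FPKM from -0.20 to 0.02 on the log2 scale, and the split of all calls from 315 higher and 1547 lower to 811 higher and 760 lower. Under that scaling the repair genes had 15 lower and 6 higher, beside 15.5% and 16.5% of all genes. The 31 repair genes of at least 1 FPKM then had a median of -0.21 beside 0.02 for all genes of that level, and as deposited -0.45 beside -0.20.

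CLSPN (hg19 chr1:36185819-36235579, minus strand, 25 exons) encodes Claspin, which holds ATR and CHEK1 together at stalled forks. It measured 7.45, 5.53 and 6.89 FPKM in the IFNγ samples and 2.95, 3.19 and 3.08 with SB-3CT and IFNγ. The groups lie far apart, and the samples with both agents are also below all 3 control samples, which had 5.18, 4.73 and 4.36. The mean fell from 6.62 ± 0.986 to 3.07 ± 0.120 (SD, n = 3 each), a log2 change of -0.90 ± 0.11 (SE, limma adjusted p = 0.00218).

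BRCA1 (hg19 chr17:41196312-41322262, minus strand), the ubiquitin ligase that directs breaks to homologous recombination, measured 7.89, 4.93 and 6.64 FPKM with IFNγ. With SB-3CT and IFNγ it measured 3.30, 3.18 and 3.05. IFNγ sample 2 was the lowest of its group and still above every sample with both agents. The log2 change was -0.82 ± 0.14 (SE, limma adjusted p = 0.00492).

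BRCC3 (hg19 chrX:154299695-154351352, plus strand), the deubiquitinase that works with BRCA1 in the BRCA1-A complex, was 8.47, 6.97 and 7.31 FPKM with IFNγ and 3.87, 4.13 and 3.97 with both agents. The 3 samples with both agents lie close together and well below the rest. Its log2 change was -0.78 ± 0.09 (SE, limma adjusted p = 0.00207).

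ERCC5 (hg19 chr13:103498181-103528345, plus strand) makes the cut 3′ of the lesion in nucleotide excision repair. It measured 7.42, 5.68 and 7.47 FPKM with IFNγ and 4.11, 3.77 and 2.72 with both agents, again without overlap, for a log2 change of -0.80 ± 0.15 (SE, limma adjusted p = 0.00593). The annotated read-through gene BIVM-ERCC5 holds 91.7% of the exon bases of its transcript on the same strand, so how StringTie divided reads between these genes is uncertain.

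**Figure D2:**
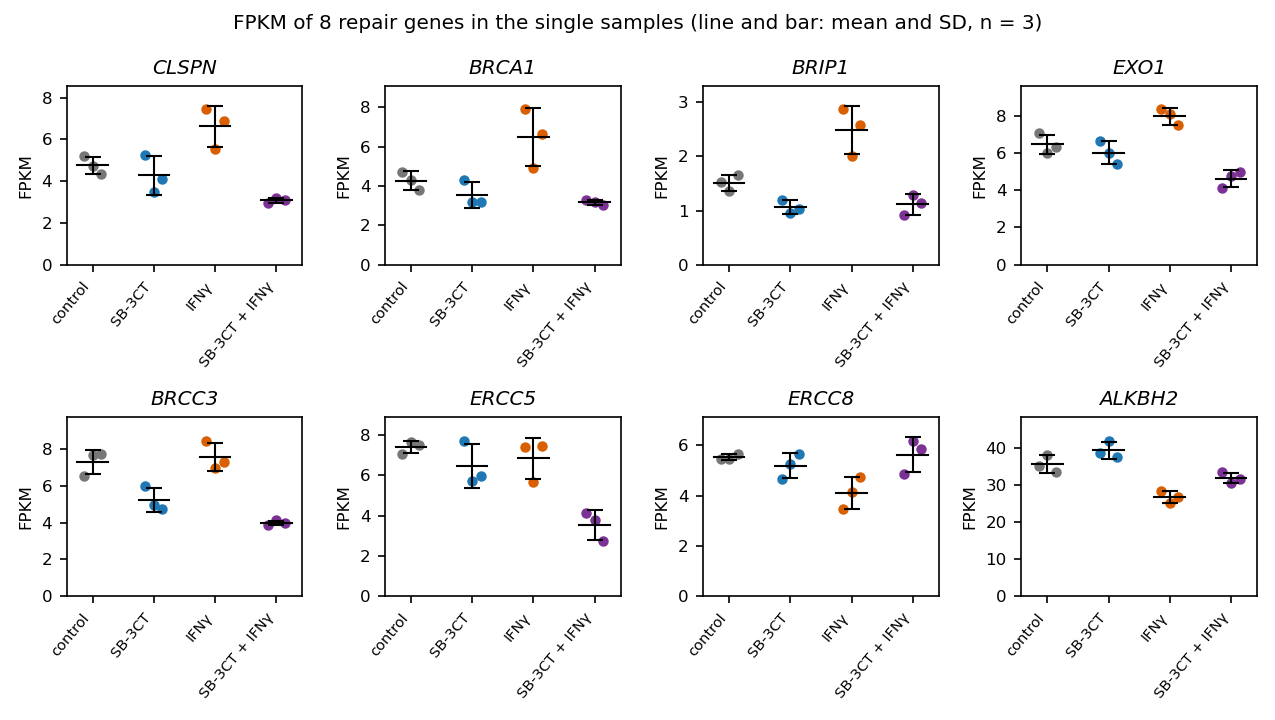
Points are the FPKM of single samples for 8 repair genes in the 4 groups (each axis starts at 0), with the mean as a line and the SD as a bar (n = 3). CLSPN, BRCA1, BRIP1, EXO1, BRCC3 and ERCC5 in all 3 samples with SB-3CT and IFNγ lie below all 3 IFNγ samples, and ERCC8 and ALKBH2 lie above them.

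By role, and beside 31.5% of all genes lower and 6.41% higher, 4 of 6 damage signalling genes were lower and 0 higher. Besides CLSPN these were the sensor kinases ATR (log2 change -0.58, 4.07 to 2.40 FPKM, limma adjusted p = 0.00497) and ATM (-0.57, 2.45 to 1.32 FPKM, 0.00259), and the checkpoint kinase CHEK1. CHEK1 changed less, by -0.28 from 12.5 to 10.1 FPKM (limma adjusted p = 0.032), and passed the test in 1 of 6 fits with a sample left out. ATRIP and CHEK2 were not called, with changes of -0.12 and 0.01. Of the exon bases of the ATRIP transcript, 24.0% are also annotated to TREX1, an exonuclease gene on the same strand.

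Homologous recombination had 8 of 10 genes lower and 0 higher, with a median change of -0.59. Of all genes 31.5% were lower, and of those at 1 to 5 FPKM with transcripts of 4000 bases or more 66.7%, with a median of -0.39. BRCC3, EXO1, EME1 and BRCA2 lie outside that range by level or length, so it is not a like set for all 10. After BRCA1 and BRCC3, the helicase gene BRIP1 changed by -0.72 (2.49 to 1.11 FPKM) and the resection nuclease gene EXO1 by -0.68 (7.98 to 4.62 FPKM). The BRCA1 partner BARD1 (-0.62), the helicase BLM (-0.56), the nuclease and helicase DNA2 (-0.48) and the recombination mediator BRCA2 (-0.36) were lower as well, all without overlap between the groups. DNA2 was called in 2 of 6 fits that left out a sample and under 1 of the 4 other scalings. BRCA2 stood at 0.833 ± 0.101 and 0.424 ± 0.0528 FPKM, a level at which the log2(FPKM + 1) scale shows only part of the difference. The 2 that were not called, EME1 (-0.34, limma adjusted p = 0.0829) and EME2 (-0.10), encode partners of the nuclease MUS81.

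All 3 SNM1 nuclease genes were lower, beside 31.5% of all genes. DCLRE1A, which acts in crosslink repair, changed by -0.59, DCLRE1B (Apollo, at telomeres) by -0.46 and DCLRE1C (Artemis, of end joining) by -0.32. The call of DCLRE1C is weak: it was under 1 FPKM in both group means, its groups overlapped, and its adjusted p was 0.0494 by limma. Of the 4 other scalings, 2 kept the call of DCLRE1A, 1 that of DCLRE1B and 0 that of DCLRE1C. Of the 6 fits that left out a sample, 6, 3 and 1 kept them. ESCO2, which acetylates cohesin in S phase, fell by 0.57 on the log2 scale, from 4.23 ± 0.482 to 2.52 ± 0.386 FPKM.

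Nucleotide excision repair was divided. ERCC5, the TFIIH helicase gene ERCC3 (-0.45, 18.7 to 13.3 FPKM) and the XPF nuclease gene ERCC4 (-0.45, 2.80 to 1.79 FPKM) were lower, and ERCC8 was higher. ERCC1, the partner of XPF, had nearly the same value in the groups (81.5 ± 3.71 and 79.8 ± 3.27 FPKM, log2 change -0.03), though 47.1% of its transcript is also annotated to POLR1G on the opposite strand and strandedness is not stated. ERCC2, ERCC6 and CETN2 were not called, at -0.16, -0.28 and 0.23.

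ERCC8 (hg19 chr5:60162281-60240900, minus strand), the CSA protein of transcription-coupled repair, went the other way from most of the set. It measured 3.47, 4.14 and 4.74 FPKM with IFNγ and 4.85, 6.18 and 5.84 with both agents. The groups do not overlap, but the gap between the nearest samples is small, and the 3 control samples (5.48, 5.44 and 5.66) are within the range of those with both agents. The log2 change was 0.37 ± 0.12 (SE, limma adjusted p = 0.0467), and the call was kept in 1 of 6 fits that left out a sample.

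Of the 6 genes of base excision, direct reversal and single-strand break repair, 2 were higher and 2 lower. ALKBH2, which reverses alkylated bases in double-stranded DNA, was 26.7 ± 1.66 FPKM with IFNγ and 31.9 ± 1.46 with both agents (0.25), and APTX (aprataxin), which clears abortive ligation ends, 19.3 ± 1.07 and 22.7 ± 0.420 (0.23). The abasic nuclease gene APEX2 was lower by a small step (25.9 ± 0.746 to 22.4 ± 1.67 FPKM, log2 change -0.21), and so was APLF, which at a mean of 0.180 against 0.0597 FPKM is too near 0 for its size to be read. ALKBH3 and APEX1, at 0.02 and -0.13, were not called.

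Level and transcript length sort these genes too. Of the 15 repair genes at 1 to 5 FPKM, 12 were lower, with a median of -0.57, whereas among all 1056 genes at that level 501 were lower with a median of -0.28. At 5 to 20 FPKM 5 of 10 repair genes were lower with a median of -0.22, beside 571 of 1132 genes and -0.26, and above 20 FPKM 1 of 6 was lower and 2 higher with a median of 0.10, beside 286 lower and 209 higher of 989 genes and -0.04. The median of the repair genes was below that of all genes of like level in the lowest of these 3 ranges and not in the others, which is a description without a test.

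The lower genes were also long: their canonical transcripts had a median length of 4450 bases, those of the 3 higher genes 1977 and those of the 10 not called 2854.5. Over 3139 genes of at least 1 FPKM the change had a Spearman correlation of -0.61 with transcript length, and over the 31 repair genes at that level -0.43, both across genes that share the same 6 libraries. At 1 FPKM or above, 11 of 16 repair genes with transcripts of 4000 bases or more were lower (68.8%), beside 759 of 1111 genes (68.3%). The medians there were -0.52 and -0.39. At 2000 to 4000 bases 7 of 9 repair genes were lower (77.8%), beside 42.9% of all genes. Under 2000 bases it was 0 of 6, beside 10.1%. Among transcripts of 4000 bases or more at 1 to 5 FPKM, 10 of 12 repair genes were lower with a median of -0.57, and 353 of 529 genes with a median of -0.39. Removing each sample's trend with length, with the sum of FPKM kept, left 7 repair genes lower and 5 higher, where 15% of all genes were lower and 28.8% higher. With the sample median kept instead, 22 repair genes were lower and 1 higher, where 45.5% of all genes were lower and 7.72% higher. For genes of at least 1 FPKM the medians under the first setting were -0.14 for repair genes and 0.00 for all. The part of transcript length in these changes was not tested further.

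**Figure D3:**
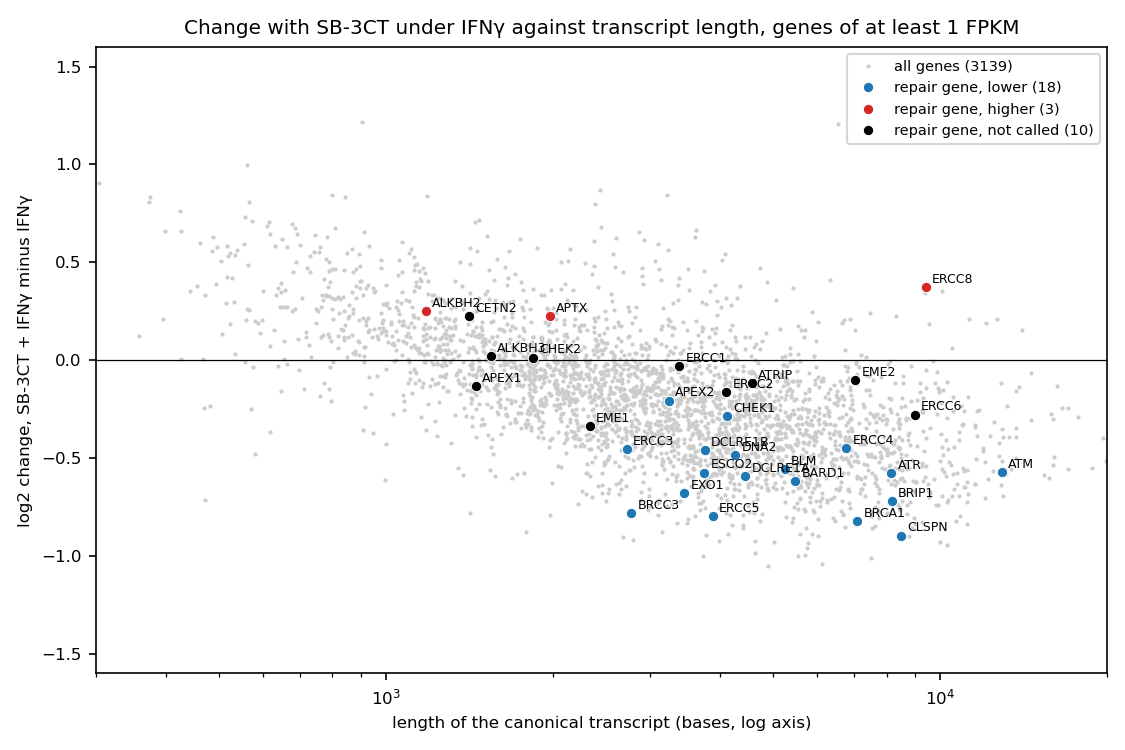
Grey points are the 3139 genes of at least 1 FPKM with a transcript length (1 lies outside the plotted range of change and 7 outside that of length), placed by canonical transcript length (bases, log axis) and log2 change with SB-3CT under IFNγ. The 18 lower repair genes of this level (blue) are transcripts of 2718 bases or more, and ERCC8, with 9414 bases, lies above 0 while the other repair genes above 0 have 1977 bases or fewer.

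Against these settings 6 of the 21 lower genes kept their call, CLSPN, BRCA1, BRCC3, BRIP1, EXO1 and ERCC5. Each was lower at an adjusted p under 0.05 as deposited, under the 4 other scalings (median ratio, quantile and both length corrections) and in all 6 fits that left out a sample. The share of all genes that kept a call in this way was not counted. For CLSPN the change ran from -0.72 to -0.46 over the 4 other scalings, and for BRCC3 from -0.83 to -0.48. Among the 3 higher genes ERCC8 was higher under every one of these scalings (0.56 to 0.82), while ALKBH2 changed by -0.12 with the length trend removed and the median kept. By role, homologous recombination had 4 to 9 lower genes of 10 over the 4 scalings and damage signalling 1 to 4 of 6, and both had 1 higher gene with the length trend removed and summed FPKM kept. The median of nucleotide excision repair turned from -0.22 to 0.16 under that setting, and that of the base excision group from -0.06 to 0.19 by the median ratio.

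**Figure D4:**
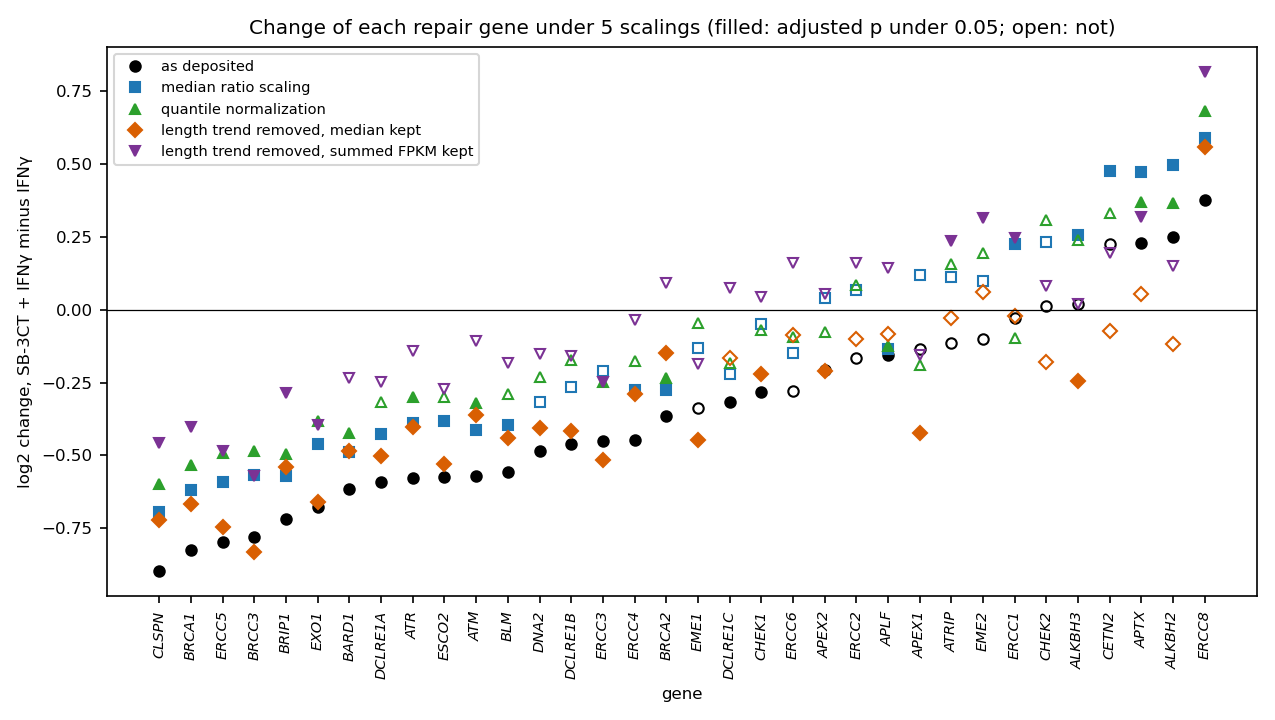
For each repair gene (x axis, ordered by the change as deposited) the symbols give its log2 change with SB-3CT under IFNγ under 5 scalings, filled where the adjusted p is under 0.05. The 6 genes at the left (CLSPN, BRCA1, ERCC5, BRCC3, BRIP1, EXO1) are filled and below 0 under all 5, and ERCC8 at the right is filled and above 0 under all 5.

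Of the 11 repair genes expressed mainly in S phase, 10 were lower, with a median of -0.57, and of the other 23 repair genes 11 were lower and 3 higher, with a median of -0.16. The S phase genes have transcripts of 2330 to 11954 bases. Of all genes of at least 1 FPKM 42.7% were lower, and of those with 4000 bases or more 68.3%. This list of 11 was chosen with earlier results of these data known. Over the 4 other scalings the first group of 11 had 4 to 11 lower genes and 0 higher, and a median of -0.49 to -0.24. In these scalings 14.5% to 45.5% of all genes were lower. The median of the second group turned to 0.04 by the median ratio and 0.07 with the length trend removed and summed FPKM kept.

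Lists of neighbouring processes were counted in the same comparison, where 31.5% of all genes were lower and 6.41% higher. A list of 22 DNA replication and S phase genes had 17 lower and 0 higher (median -0.46), led by the chromatin ATPase ATAD2 (10.7 to 4.82 FPKM) and the cyclin CCNE2 (9.47 to 4.61 FPKM). A list of 22 mitosis genes had 13 lower and 1 higher (median -0.40), led by CENPF of the kinetochore and the cytokinesis factor ECT2. In a list of other repair genes, 35 of 41 named being in the table, 15 were lower and 3 higher with a median of -0.22, which turned to 0.02 by the median ratio. A list of 12 p53 target genes had 3 lower (25%, under the share of all genes) and 1 higher, which became 1 lower and 4 higher by the median ratio, where the mitosis list had 11 lower and 5 higher and the S phase list 11 lower and 1 higher. By the median ratio 15.5% of all genes were lower and 16.5% higher.

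The promoter of CLSPN and that of EXO1 are shown because these genes changed in every setting above, and because no other of these repair genes with a promoter window holds an E2F site of the form searched, the element through which E2F factors drive S phase genes. RefSeq promoter windows (GRCh38.p14, 250 bases before to 50 after the start) were given for 32 of the 34 genes, with 44 windows in all. Capitals mark the E2F site, searched as TTTCCCGC, TTTCGCGC, TTTGCCGC or TTTGGCGC on both strands, in CLSPN (chr1:35769954-35770043, minus strand) and EXO1 (chr1:241848148-241848228, plus strand).
CLSPN: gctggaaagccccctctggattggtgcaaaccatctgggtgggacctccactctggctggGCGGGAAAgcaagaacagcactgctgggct
EXO1: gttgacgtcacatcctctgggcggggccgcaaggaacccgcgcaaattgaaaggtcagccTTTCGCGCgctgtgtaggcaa
The match in CLSPN begins 5 bases before the annotated start and that in EXO1 at base 5 after it. These 2 of 32 repair genes, 6.25%, compare with 7.33% of all genes of at least 1 FPKM and with 3.31% of all 35116 windows. CCAAT on both strands was found in 19 of 32 (59.4%), beside 44.2% of genes of at least 1 FPKM. TTTGAA, the core of the cell cycle element CHR, was found in 5 of 32 (15.6%, beside 14.3%). The interferon-activated site, searched as TTCNNNGAA, was found in 2 of 32, EXO1 and DCLRE1C (6.25%, beside 8.98%). The EXO1 match lies in another window than the one printed. These are matches of letters in these windows only.

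The second comparison gave the change with SB-3CT in cells without IFNγ. Here 2 repair genes passed the test, both lower, BRCC3 and CETN2, and 0 were higher. This is 5.88% of the set, beside 6.87% lower and 5.37% higher over all genes, and the median change of the set was -0.11. At an unadjusted p under 0.05, limma gave 1 higher and 8 lower repair genes. The share of all genes at that threshold was not counted, so these numbers have no background.

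BRCC3 was 6.56, 7.68 and 7.73 FPKM in control and 6.01, 4.96 and 4.75 with SB-3CT. CETN2 (hg19 chrX:151995538-151999301, minus strand), the centrin that steadies the XPC damage sensor, was 36.4, 34.5 and 32.9 FPKM in control and 29.0, 25.9 and 29.7 with SB-3CT. Neither gene's groups overlap, though SB-3CT sample 1 lies close to control sample 1 for BRCC3. The log2 changes were -0.42 ± 0.10 for BRCC3 (SE, limma adjusted p = 0.0396) and -0.29 ± 0.06 for CETN2 (SE, limma adjusted p = 0.0323).

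These calls rested on few samples. CETN2 was called in 0 and BRCC3 in 1 of the 6 fits that left out a sample. SB-3CT sample 1 was the highest of its group in 21 of the 34 genes and in 10 of the 11 S phase genes, beside 51.0% of all genes of at least 1 FPKM. Leaving out any other sample of the 6 gave 0 calls. In those fits only 0.61% to 0.773% of all genes were lower and 0.834% to 1.18% higher, so the calls of all genes fell as well. Without SB-3CT sample 1, 10 repair genes were lower (ATM, BARD1, BLM, BRCC3, BRIP1, DNA2, ERCC3, ERCC5, APLF and ESCO2) and ATRIP was higher, beside 12.4% of all genes lower and 6.14% higher in that fit. With all samples the groups of ATM (2.16 ± 0.169 and 1.54 ± 0.335 FPKM), BARD1, BLM, BRIP1, DNA2 and ESCO2 did not overlap either, at log2 changes of -0.36 to -0.29 and adjusted p from 0.0564 to 0.0947 by limma. Nor did those of ERCC3 (-0.13, limma adjusted p = 0.167) and ALKBH3 (0.10, limma adjusted p = 0.257). The share of all genes without overlap was not counted. ATRIP was 7.11, 7.79 and 8.09 FPKM in control and 8.65, 9.76 and 10.1 with SB-3CT, a change of 0.27 (limma adjusted p = 0.06).

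Of the companion lists, 4 of 12 p53 target genes were higher and 1 lower with SB-3CT alone, among them the cell cycle inhibitor CDKN1A at 395 ± 6.27 FPKM in control and 515 ± 16.4 with SB-3CT. The 22 S phase genes had 3 higher and 5 lower. Over all genes 5.37% were higher and 6.87% lower.

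The third comparison was of IFNγ against control, which uses the same control samples as the second. BRCA2 and BRIP1 were higher and ALKBH2, ALKBH3 and APTX lower. These are 5.88% and 8.82% of the set, against 8.46% higher and 11% lower over all genes, and the median change was 0.03.

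BRIP1 (hg19 chr17:59756500-59940920, minus strand), the helicase that binds BRCA1, was 1.52, 1.35 and 1.65 FPKM in control and 2.87, 2.00 and 2.59 with IFNγ. Every IFNγ sample was above every control sample, and the log2 change was 0.47 ± 0.11 (SE, limma adjusted p = 0.0316). BRCA2 was 0.520 ± 0.0838 and 0.833 ± 0.101 FPKM (0.27). BRIP1 and BRCA2 were higher under all 4 other scalings, and in 1 and 2 of 6 fits that left out a sample.

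Of the 9 other S phase genes, CLSPN, BRCA1 and EXO1 missed the threshold as deposited but were higher under some of the scalings. CLSPN changed by 0.40 (4.76 to 6.62 FPKM, limma adjusted p = 0.0573), BRCA1 by 0.49 (4.26 to 6.49 FPKM, 0.0798) and EXO1 by 0.27 (6.47 to 7.98 FPKM, 0.055). The groups of these 3 genes did not overlap, which was not counted over all genes. BARD1, BLM, CHEK1, DNA2, EME1 and ESCO2 had overlapping groups, changes of -0.02 to 0.15 and no call under any scaling. By the median ratio 7 repair genes were higher and 4 lower, with CLSPN, BRCA1, EXO1, ATR and DCLRE1C added to the higher ones, beside 12.1% of all genes higher and 10.2% lower. IFNγ sample 2 was the lowest of its group in 26 of the 34 genes, beside 64.1% of all genes of at least 1 FPKM, and without it 5 repair genes were higher (ATR, CLSPN, BRCA1, BRCA2 and BRIP1) and 4 lower, beside 9.92% and 10% of all genes. In the list of 22 S phase genes, 9 were higher and 0 lower with IFNγ as deposited, beside 8.46% higher and 11% lower of all genes.

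The alkylation reversal genes fell with IFNγ. ALKBH2 (hg19 chr12:109525993-109531436, minus strand) was 35.3, 38.2 and 33.6 FPKM in control and 28.4, 25.1 and 26.7 with IFNγ, and ALKBH3 (hg19 chr11:43902361-43941824, plus strand) lay between 12.9 and 13.1 in the 3 control samples and was then 10.2, 10.6 and 11.1. APTX (hg19 chr9:32886599-33025128, minus strand) was 24.0, 22.9 and 22.7 in control and 18.7, 18.6 and 20.5 with IFNγ. None of these groups overlapped. The log2 changes were -0.40 ± 0.07 for ALKBH2, -0.27 ± 0.05 for ALKBH3 and -0.26 ± 0.05 for APTX (SE), with limma adjusted p of 0.00955, 0.0122 and 0.0202. ALKBH2 was called in all 6 fits that left out a sample, ALKBH3 in 4 and APTX in 2. ALKBH3 and APTX were called under all 4 other scalings, and ALKBH2 under 3 of them, not with the length trend removed and the median kept. Under 2000 bases 3 of 6 repair genes of at least 1 FPKM were lower, beside 20.1% of all genes. The change with IFNγ had a Spearman correlation with transcript length of 0.56 over the 31 repair genes of at least 1 FPKM and 0.16 over 3139 genes.

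Cells given both agents, compared with cells given SB-3CT alone, had 12 lower repair genes, 35.3% of the set, and 0 higher. Limma gave 15 lower and 1 higher at an unadjusted p under 0.05, a threshold at which all genes were not counted. At the adjusted threshold 32.7% of all genes were lower and 7.85% higher. Among genes of at least 1 FPKM the median was -0.24 for the set and -0.21 for all genes. By the median ratio that median of all genes moved to 0.01, and 1 repair gene, ERCC3, was lower while 2 were higher, beside 10.2% and 13.7% of all genes. ERCC3 (hg19 chr2:128014866-128051742, minus strand), the XPB helicase of TFIIH, was 19.4, 17.5 and 17.5 FPKM with SB-3CT and 13.4, 13.2 and 13.4 with both agents. The 3 samples with both agents were nearly equal and below all others, at a log2 change of -0.42 ± 0.05 (SE, limma adjusted p = 0.00195), and ERCC3 was lower in every other scaling and in all 6 fits that left out a sample.

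ERCC5 was 7.73, 5.73 and 5.98 FPKM with SB-3CT and 4.11, 3.77 and 2.72 with both (-0.73 ± 0.16, SE, limma adjusted p = 0.0133). ERCC2, the XPD helicase gene of TFIIH, was 11.4, 12.1 and 12.4 and then 9.60, 8.49 and 8.13 FPKM (-0.41 ± 0.07), and APEX2 28.6, 30.7 and 29.5 and then 24.2, 22.0 and 20.9 (-0.39 ± 0.06). The groups of these genes do not overlap either, and none of the 3 was called by the median ratio. The other lower genes were ATRIP, BRCC3, EXO1, ERCC4, ERCC6, ALKBH2, ALKBH3 and APEX1. Of the S phase genes only EXO1 was among the 12, and none was higher, with CLSPN at -0.36 (limma adjusted p = 0.0721), BRCA1 at -0.11 and BRIP1 at 0.04.

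The last comparison asked whether the SB-3CT change differed between cells with and without IFNγ, by the interaction term of a fit over all 12 samples. The 2 changes share no samples. They had the same sign in 23 of the 34 genes (20 lower in both, 3 higher in both), and the change under IFNγ was the lower of the 2 in 28 genes, 82.4%, beside 68.6% of all genes. The difference itself passed the test for 8 genes, 6 lower (EXO1, CLSPN, APEX2, DCLRE1B, ATR and ERCC5) and 2 higher (CETN2 and ERCC8). These are 17.6% and 5.88% of the set, against 17.6% lower and 4.74% higher over all genes, so the count is near that of all genes.

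EXO1 (hg19 chr1:242011269-242058450, plus strand) digests the broken end in resection. It was 7.06, 6.02 and 6.32 FPKM in control and 6.65, 6.01 and 5.41 with SB-3CT, which overlap, and 8.36, 8.10 and 7.49 with IFNγ and 4.11, 4.79 and 4.96 with both, which do not. Its changes were -0.09 without and -0.68 with IFNγ, a difference of -0.59 ± 0.12 (SE, limma adjusted p = 0.00937). CLSPN, with 5.27, 3.46 and 4.09 FPKM under SB-3CT alone, changed by -0.14 without and -0.90 with IFNγ, a difference of -0.76 ± 0.18 (SE, limma adjusted p = 0.0143). EXO1 and CLSPN were called in this test under the 4 other scalings and in all 12 fits that left out a sample.

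CETN2 was lower with SB-3CT alone and not called under IFNγ, and the difference passed the test. Its values were 29.0, 32.6 and 25.4 FPKM with IFNγ and 30.2, 36.1 and 35.7 with both agents, groups that overlap, for a change of 0.23 beside -0.29 without IFNγ and a difference of 0.51 ± 0.13 (SE, limma adjusted p = 0.0198). It was called in all 12 fits that left out a sample and in 3 of the 4 other scalings. BRCA1 and BRIP1, whose changes with IFNγ were among the largest, missed the threshold here, at differences of -0.61 ± 0.20 and -0.43 ± 0.15 (SE, limma adjusted p = 0.0506 and 0.0535). By the median ratio 4 genes had a higher and 2 a lower change under IFNγ, beside 7.81% and 5.23% of all genes. Leaving out a sample gave 3 to 16 genes in all, with 16 without IFNγ sample 2 (29.5% of all genes in that fit) and 3 without control sample 2 or IFNγ sample 1 (13.8% and 14.7%).

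**Figure D5:**
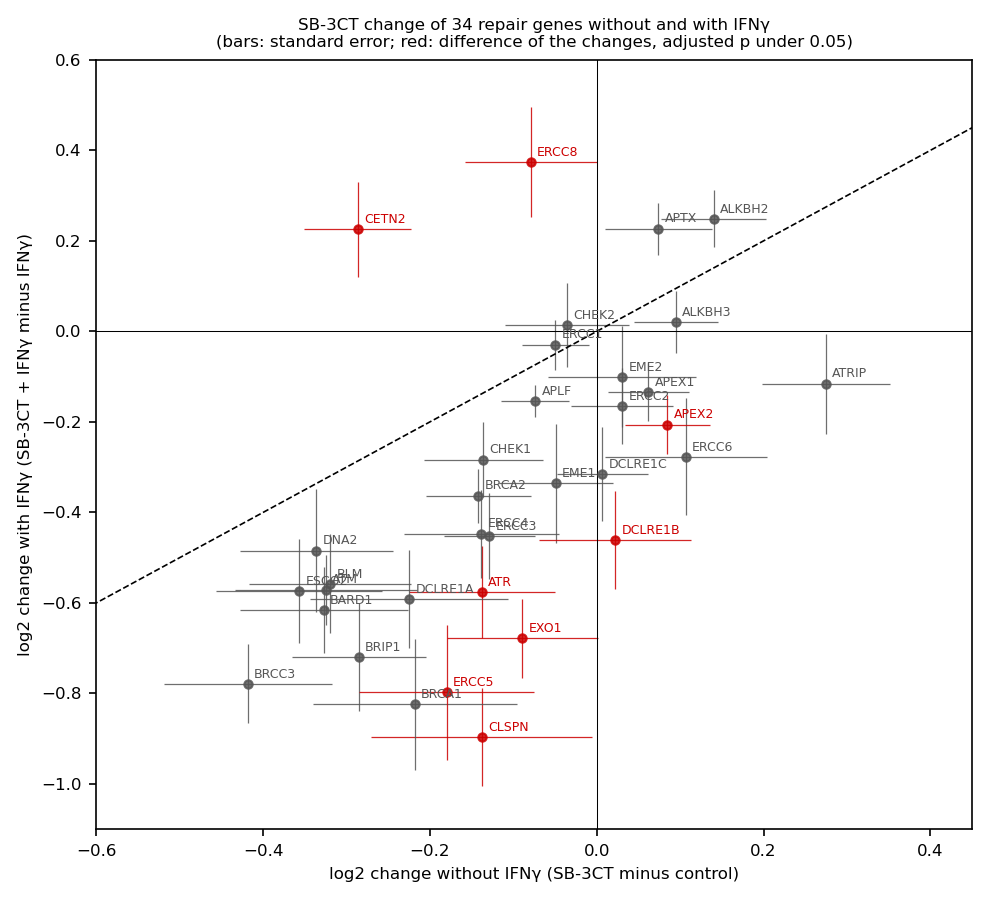
Each point is a repair gene, placed by its log2 change with SB-3CT without IFNγ (x axis) and with IFNγ (y axis), with standard errors as bars and the line of equal change dashed. The 8 genes in red differ between the axes at an adjusted p under 0.05, and 28 of the 34 lie below the dashed line.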

How the data were processed

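RNA of 12 samples of A375 cells was sequenced by the authors with paired-end reads, aligned to hg19 with HISAT2 2.0.5 and summarised per gene as FPKM with StringTie 1.3.3 (versions from the submitters' processing notes). The table the authors deposited holds log2 values that reach 12.16 and behave as log2(FPKM + 1), which was undone wherever FPKM is given. Sample columns were identified through their names, with 0 left over.

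The 34 genes were given by symbol and not picked by their values. Their list and all other gene lists were nevertheless set with earlier results of these data known. All 4918 genes were fitted with limma 3.58.1 in R 4.3.3 (lmFit, eBayes with a variance trend), unpaired, with the 3 + 3 samples of a comparison, and the difference of the SB-3CT changes over all 12 samples. P-values were adjusted over all genes (Benjamini-Hochberg), with calls under 0.05. An exact permutation test of 3 against 3 samples cannot give a p under 0.1 and was not used. Every sample's values are given for up to 4 genes per comparison of 2 groups, those with the largest change among genes called, with a group mean of at least 1 FPKM and no overlap, and for the 3 smallest p of the difference. ERCC8 and the control values of other genes were added after their values had been seen. Positions and canonical transcript lengths came from GENCODE release 44 mapped to GRCh37. Symbols found there numbered 4458, with 417 more under a synonym, and 98.5% of genes had a length. The fits were tested on simulated data. Alternatives are given under the dependence on processing.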

Additional observations from a re-analysis of the deposited data

Results flagged for a closer look

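The SB-3CT change differed between cells with and without IFNγ for 8 repair genes, by the interaction term of limma over all 12 samples. The 6 lower and 2 higher are 17.6% and 5.88% of the set, beside 17.6% and 4.74% of all genes. The change under IFNγ was the lower of the 2 by -0.76 for CLSPN (limma adjusted p = 0.0143), -0.62 for ERCC5 (0.0423), -0.59 for EXO1 (0.00937), -0.48 for DCLRE1B (0.0292), -0.44 for ATR (0.0317) and -0.29 for APEX2 (0.026), all on the log2 scale. It was the higher by 0.51 for CETN2 (limma adjusted p = 0.0198) and 0.45 for ERCC8 (0.0479).

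CLSPN and EXO1 kept this call under the 4 other scalings and without any 1 of the 12 samples. ERCC8 kept it under the 4 other scalings and in 3 of the 12 fits that left out a sample, and ERCC5, ATR, DCLRE1B and APEX2 in 3, 5, 6 and 6 of them. ERCC5, APEX2, ATR and DCLRE1B each kept it under 1 of the 4 other scalings, and all of them lost it by the median ratio and by quantile normalization.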

How the results depend on the processing

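Of 253 values recomputed under the alternatives, for the 17 pairs of gene and comparison that the rule for named genes gave, 218 kept their direction and side of the threshold, 35 kept the direction without passing the threshold, and 0 reversed. Of all 51 calls of repair genes over the comparisons, 6 took the other sign under another scaling without passing the threshold, all for SB-3CT with IFNγ against IFNγ. ALKBH2 became -0.12 with the length trend removed and the median kept, CHEK1 0.04, BRCA2 0.09, DCLRE1C 0.07, APEX2 0.06 and APLF 0.14 with it removed and summed FPKM kept, and APEX2 0.04 by the median ratio. The counts of repair genes moved more, and the causes were not tested. For SB-3CT with IFNγ against IFNγ the 3 higher and 21 lower became 6 higher by the median ratio, 12 lower by quantile normalization, 5 higher and 7 lower with the length trend removed and summed FPKM kept, and 1 higher with the median kept. The counts became 0 higher and 8 lower at a fold over 1.5 of FPKM + 1 with unadjusted p under 0.05 in limma. Here and below, counts by fold are not those of FPKM ratios, since low genes show less than their full change. ATM, at an FPKM ratio of 0.54, was not counted as lower by this rule. For SB-3CT against control the 0 higher and 2 lower became 1 higher and 8 lower among genes of at least 1 FPKM, 4 lower with all 4 groups in one fit, 1 lower by quantile normalization or with the length trend removed and summed FPKM kept, and 0 by fold. For IFNγ against control the 2 higher and 3 lower became 7 higher by the median ratio, 5 higher and 5 lower by quantile normalization, 5 higher and 6 lower among genes of at least 1 FPKM, with all 4 groups in one fit or with the length trend removed and summed FPKM kept, and 0 and 0 by fold. For SB-3CT with IFNγ against SB-3CT the 0 higher and 12 lower became 2 higher and 1 lower by the median ratio, 1 higher and 3 lower by quantile normalization, 5 higher and 6 lower with the length trend removed and summed FPKM kept, 1 higher among genes of at least 1 FPKM or with all 4 groups in one fit, and 1 lower by fold. The 8 genes of the difference became 5 by quantile normalization or with the length trend removed and summed FPKM kept, and 13 among genes of at least 1 FPKM. By quantile normalization 11%, 7.04%, 10.3% and 10.6% of all genes were higher and 14.5%, 6.51%, 13.4% and 17% lower, in the above order of the comparisons of 2 groups. With the length trend removed and summed FPKM kept it was 28.8%, 7.86%, 11.1% and 27.3% higher and 15%, 6.36%, 15.9% and 18.6% lower. Shares of all genes under the other settings of this paragraph are not all given.

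Leaving out each sample in turn gave 0 to 2 higher and 15 to 21 lower for SB-3CT with IFNγ against IFNγ, beside 3.99% to 6.73% and 21% to 33.5% of all genes. It gave 0 to 1 higher and 0 to 10 lower for SB-3CT against control (all genes 0.834% to 6.14% and 0.61% to 12.4%). For IFNγ against control it gave 0 to 5 higher and 1 to 4 lower (all genes 5.51% to 9.92% and 5.82% to 10.8%). It gave 0 to 1 higher and 8 to 10 lower for SB-3CT with IFNγ against SB-3CT (all genes 6.16% to 6.91% and 24.5% to 29.3%), and 3 to 16 for the difference (all genes 13.8% to 29.5%). For IFNγ against control the count of higher genes was 0 without IFNγ sample 1 or 3 or control sample 2 or 3, and that of lower genes was 1 without control sample 1 or 3. Same-numbered samples did not deviate together (correlations from -0.39 to 0.17), and with the replicate number as a block the counts became 0 lower for SB-3CT against control, 1 higher for IFNγ against control, 17 lower for SB-3CT with IFNγ against IFNγ and 8 lower against SB-3CT. Over all genes the block gave 2.7%, 7.22%, 26.9% and 21.9% in the same order.

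Depth was known only relative to control, so small differences of genes under 1 FPKM (BRCA2, DCLRE1C, APLF) have no counting error.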
